A study of Homo sapiens with 5 samples.

Results

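YAP1, its paralog WWTR1 (the gene for TAZ), the TEAD1 and TEAD4 DNA-binding partners, the cofactor VGLL3 and 5 genes that YAP is known to activate (CYR61, CTGF, ANKRD1, AMOTL2 and LATS2) were followed in HCT116 cells with and without ELK4 knockdown. These 10 genes were taken by symbol from the 20026 genes of the expression files, and 8 of the 10 reached the limit for testing, an FPKM (a fragment count scaled to transcript length and to the mapped reads of the library) of 1 or more in no fewer than 2 libraries, as did 10780 genes in all. They were chosen by their FPKM values in the same comparison of ELK4 knockdown with control cells that is described here, so their own values are given as a description and carry no test. HCT116 is an established line from a human colorectal carcinoma. The control group held 2 libraries of cells transduced with the pLKO.1 vector, and the knockdown group held 3 libraries, shELK4_1, shELK4_2 and shELK4_3, each from cells stably expressing a different hairpin against ELK4. Vector and hairpins were delivered by lentivirus with puromycin selection, no agent or time point was varied, and no library carries a hairpin against another gene. The labels do not state whether the libraries came from separate cultures, so p-values measure only the spread between these libraries. That spread may be technical in the controls, and in the knockdown group it also includes differences between the hairpins. What carrying a hairpin does in itself cannot be told apart from loss of ELK4, as the controls carry none.

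The Hippo pathway is a kinase cascade in which MST kinases (STK3 and STK4) activate LATS1 and LATS2, which phosphorylate YAP and TAZ and thereby hold them in the cytoplasm. Unphosphorylated YAP and TAZ enter the nucleus, where they have no DNA-binding domain of their own and act through TEAD factors. VGLL proteins bind the same TEAD factors and can compete with YAP for them. In the intestine YAP is known for its part in regeneration and in tumor growth, and AMOTL2 and LATS2 are targets that feed back to restrain it.

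TEAD factors bind a core of CATTCC, and ETS factors such as ELK4 bind sequences such as CCGGAAGT. To show where these words lie in the members whose levels are described next, the 250 bases before each start annotated in RefSeq were searched. Both words were sought on both strands (GRCh38.p14). Windows were matched for 7 of the 10 members, with 9 windows in all, and for CYR61, TEAD1 and TEAD4 no window was matched. Both WWTR1 windows and the second AMOTL2 window lie inside the gene spans given below, which come from GENCODE. The first AMOTL2 window overlaps its span. These windows therefore do not describe the outer start of those spans. CATTCC or its reverse complement GGAATG was found in 1 window each of YAP1, CTGF, ANKRD1 and AMOTL2, that is in 4 of the 9, and in 11.9% of all 35116 windows. CCGGAAGT or ACTTCCGG was found in 0 of the 9 windows, and in 3.4% of all windows. Those of YAP1 (chr11:102110197-102110446, plus strand), CTGF (chr6:131951373-131951622, minus strand), the second AMOTL2 window (chr3:134374448-134374697, minus strand) and VGLL3 (chr3:86991150-86991399, minus strand, without a match) are shown 5′ to 3′ in the direction of transcription, with matches in capitals.
YAP1: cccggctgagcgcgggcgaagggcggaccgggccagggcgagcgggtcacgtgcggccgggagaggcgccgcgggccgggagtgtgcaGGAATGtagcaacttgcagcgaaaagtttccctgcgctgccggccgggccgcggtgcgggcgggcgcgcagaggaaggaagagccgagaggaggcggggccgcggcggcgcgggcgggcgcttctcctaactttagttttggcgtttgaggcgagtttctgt
CTGF: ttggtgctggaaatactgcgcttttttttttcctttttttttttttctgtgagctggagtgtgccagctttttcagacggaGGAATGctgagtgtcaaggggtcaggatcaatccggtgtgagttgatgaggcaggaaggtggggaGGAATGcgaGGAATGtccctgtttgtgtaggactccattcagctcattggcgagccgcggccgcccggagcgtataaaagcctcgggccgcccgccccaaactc
AMOTL2: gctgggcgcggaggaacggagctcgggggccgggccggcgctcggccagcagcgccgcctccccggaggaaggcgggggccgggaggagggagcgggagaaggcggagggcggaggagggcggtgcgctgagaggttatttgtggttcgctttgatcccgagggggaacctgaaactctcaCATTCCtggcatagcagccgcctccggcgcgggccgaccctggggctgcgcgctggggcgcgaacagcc
VGLL3: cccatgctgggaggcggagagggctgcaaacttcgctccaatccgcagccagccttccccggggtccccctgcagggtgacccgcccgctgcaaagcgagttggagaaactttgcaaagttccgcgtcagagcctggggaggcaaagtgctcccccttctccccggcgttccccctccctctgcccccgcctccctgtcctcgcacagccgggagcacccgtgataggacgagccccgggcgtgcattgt
The CTGF window held 3 matches, starting at −169, −104 and −95 from the start site, all on the strand opposite to the gene. The single match of YAP1 started at −162 on the opposite strand, and that of AMOTL2 at −69 on the same strand. ANKRD1 held 2 matches, at −220 and −128. A match describes these letters and does not show binding.

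ELK4, the targeted gene, had 8.62 and 7.60 FPKM in the controls against 3.14 FPKM with shELK4_1, 2.82 FPKM with shELK4_2 and 2.44 FPKM with shELK4_3, so the label of every library held. The hairpin that left the most ELK4 was shELK4_1. Across the 10780 tested genes, the SD of the log2(FPKM + 1) difference from the control mean was 0.288 to 0.313 for the 3 hairpins, and that between the 2 controls was 0.117, so no hairpin stood apart in its overall distance from the controls. FPKM totals ran from 309139 to 319870 and carry no depth. The 6 epithelial markers (EPCAM, CDH1, KRT8, KRT18, KRT19 and CLDN4) were all expressed, with a summed FPKM of 2739 and 2784 in the controls and 1565 to 2133 in the knockdown libraries. The summed FPKM was 3.18 to 4.39 for 6 fibroblast markers, 3.10 to 4.21 of which was COL1A1, and at most 0.436 for 4 leukocyte and 0.126 for 4 endothelial markers, with CD3E and CDH5 listed at 0 in every library. The epithelial sum was carried by KRT8, KRT18 and KRT19, each below both controls in all 3 hairpins. EPCAM, CDH1 and CLDN4 overlapped the controls and stood at 106%, 114% and 114% of the control mean in shELK4_1. They were below both controls in the other hairpins, at 87.5%, 50.8% and 70.8% in shELK4_2 and at 75.6%, 72.0% and 67.2% in shELK4_3. The part of these markers in the results was not tested. In bulk RNA, fewer cells expressing a gene and less RNA per cell cannot be told apart.

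Among the coactivators, YAP1 was lower with every hairpin, while WWTR1 was higher with every hairpin, and both differences were largest for shELK4_1. YAP1 (chromosome 11, 102110447 to 102233424 on GRCh38) had 34.7 and 33.8 FPKM in the controls, 11.3 FPKM in shELK4_1, 23.2 FPKM in shELK4_2 and 26.3 FPKM in shELK4_3. The groups did not overlap, and shELK4_1 lay far below the other two hairpins. Its mean was 34.2 ± 0.641 FPKM (SD, n = 2) in the controls and 20.3 ± 7.89 FPKM (SD, n = 3) after knockdown. With shELK4_1 33.2% of the control mean was left, with shELK4_2 67.8% and with shELK4_3 76.9%.
On the log2(FPKM + 1) scale, the difference of YAP1 from the control mean was −1.51 in shELK4_1, the 7th lowest of the 10780 genes in that library. The same difference was −0.54 in shELK4_2, the 505th lowest there, and −0.37 in shELK4_3, the 806th lowest. The 2 controls differed by 0.04 in size, so YAP1 was below the controls with every hairpin by more than the controls differed from each other. Without shELK4_1 the mean difference was −0.45, compared with −0.81 over all 3 hairpins, so the size of the difference rested largely on that library.

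WWTR1 (chromosome 3, 149517235 to 149736714), whose product TAZ shares most YAP functions, had 7.83 and 7.52 FPKM in the controls, 12.4 FPKM in shELK4_1, 10.8 FPKM in shELK4_2 and 8.92 FPKM in shELK4_3. Every knockdown library lay above both controls, and the order of the hairpins was the reverse of that for YAP1. The mean was 7.67 ± 0.216 FPKM (SD, n = 2) in the controls and 10.7 ± 1.76 FPKM (SD, n = 3) after knockdown. As FPKM is given per length of transcript, the levels of the 2 genes can be set side by side. The ratio of YAP1 to WWTR1 was 4.43 and 4.49 in the controls, 0.912 in shELK4_1, 2.15 in shELK4_2 and 2.95 in shELK4_3. WWTR1 thus exceeded YAP1 in shELK4_1 but in no other library. Their summed level was 42.5 and 41.3 FPKM in the controls, 23.8 FPKM in shELK4_1, 34.0 FPKM in shELK4_2 and 35.2 FPKM in shELK4_3, so the higher WWTR1 did not make up the lower YAP1 in any hairpin.
Other annotated genes cover 10.1% of the exonic bases of YAP1, 9.1% of those of WWTR1 (WWTR1-AS1), 11.9% of those of CTGF (LINC01013) and 2.9% of those of AMOTL2 (the pseudogene RPL39P5). Whether counting used the strand is not given in the sources used here, so reads in those bases are uncertain. The other 6 members overlapped no annotated exon of another gene.

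**Figure D1:**
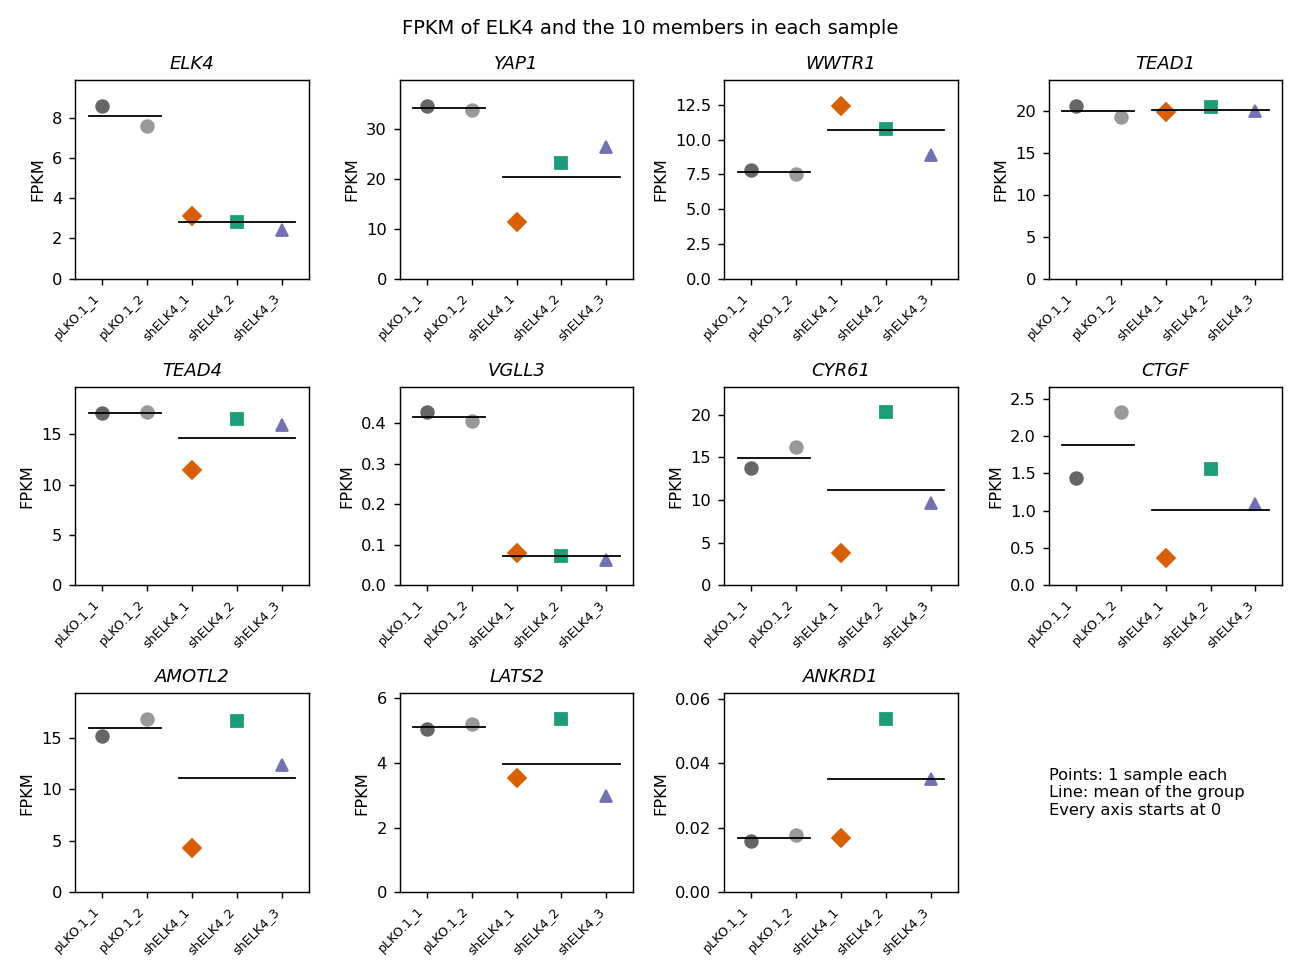
FPKM of ELK4 and the 10 members in each library (1 point each), with the mean of the 2 pLKO.1 and of the 3 shELK4 libraries as lines; every vertical axis starts at 0. ELK4 and VGLL3 were low in all 3 hairpins, whereas YAP1, TEAD4, CYR61, CTGF and AMOTL2 had their lowest values in shELK4_1.

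Of the DNA-binding partners, TEAD1 was level across the libraries, and TEAD4 was lower mainly in shELK4_1. TEAD1 (chromosome 11, 12674421 to 12944737) had 20.7 and 19.3 FPKM in the controls, against 19.9, 20.4 and 20.1 FPKM for shELK4_1 to shELK4_3. All 3 values lay between the 2 controls. TEAD4 (chromosome 12, 2959330 to 3040676) had 17.1 and 17.2 FPKM in the controls, 11.5 FPKM in shELK4_1, 16.5 FPKM in shELK4_2 and 16.0 FPKM in shELK4_3. The groups did not overlap, and the mean was 17.1 ± 0.0645 FPKM (SD, n = 2) in the controls and 14.7 ± 2.76 FPKM (SD, n = 3) after knockdown. TEAD4 was at 67.1% of the control mean in shELK4_1, against 96.6% and 93.2% in the others. The paralogs TEAD2 and TEAD3 had control means of 4.29 ± 0.368 and 8.44 ± 0.462 FPKM (SD, n = 2). TEAD3 was slightly higher in all 3 hairpins (log2 difference 0.20, standard error 0.09, adjusted p = 0.34 from limma), and TEAD2 reached 6.99 FPKM in shELK4_1 against 4.50 and 4.15 FPKM in the others (adjusted p = 0.639 from limma). The FPKM of the 4 TEAD genes together was 50.4 and 49.3 in the controls and 48.0, 51.1 and 50.6 in the hairpins. The lowest sum was in shELK4_1, and the sums of the other two hairpins were slightly above the controls.

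VGLL3 was low to a similar extent in all 3 hairpins. VGLL3 (chromosome 3, 86876388 to 86991149) had 0.426 and 0.404 FPKM in the controls, 0.0794 FPKM in shELK4_1, 0.0718 FPKM in shELK4_2 and 0.0620 FPKM in shELK4_3. The knockdown libraries lay close together and well below both controls. The mean was 0.415 ± 0.0155 FPKM (SD, n = 2) in the controls and 0.0711 ± 0.00873 FPKM (SD, n = 3) after knockdown, which is 17.1% of the control level. The order of the hairpins was that of ELK4 itself, with shELK4_3 lowest and shELK4_1 highest, although the neighbors in that order differed by little. VGLL3 lay below the FPKM limit in every library, its depth in reads is unknown, and on the log2(FPKM + 1) scale its difference was only −0.40, since a pseudocount of 1 outweighs such values. With a pseudocount of 0.1 it was −1.59.
Of the other VGLL genes, VGLL4, a TEAD-binding antagonist of YAP, had 10.7 and 10.4 FPKM in the controls, 12.4 FPKM in shELK4_1, 3.95 FPKM in shELK4_2 and 10.3 FPKM in shELK4_3. It was low in shELK4_2 alone, and over the 3 hairpins its log2 difference of −0.35 had a standard error of 0.40 (adjusted p = 0.701 from limma). VGLL1 did not exceed 0.195 FPKM in any library, and VGLL2 was listed at 0 in all 5.

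The target genes did not move alike in the 3 hairpins. CYR61, CTGF and AMOTL2 were at their lowest in shELK4_1, intermediate in shELK4_3 and near or above the controls in shELK4_2. CYR61 (chromosome 1, 85580761 to 85584589), which encodes the secreted matricellular protein also called CCN1, had 13.7 and 16.2 FPKM in the controls, 3.81 FPKM in shELK4_1, 20.3 FPKM in shELK4_2 and 9.60 FPKM in shELK4_3. It was 25.5% of the control mean in shELK4_1 and 135% in shELK4_2, so the groups overlapped. CTGF (chromosome 6, 131948176 to 131951372), also called CCN2 and likewise a secreted matricellular protein, had 1.44 and 2.32 FPKM in the controls, 0.365 FPKM in shELK4_1, 1.55 FPKM in shELK4_2 and 1.10 FPKM in shELK4_3. The controls themselves differed by 0.44 on the log2(FPKM + 1) scale, and the value of shELK4_2 lay between them.
AMOTL2 (chromosome 3, 134355347 to 134375479), an angiomotin that binds YAP, had 15.2 and 16.8 FPKM in the controls, 4.34 FPKM in shELK4_1, 16.6 FPKM in shELK4_2 and 12.4 FPKM in shELK4_3. It was 27.1% of the control mean in shELK4_1 and 104% in shELK4_2. The differences of CYR61, AMOTL2 and YAP1 in shELK4_1 were the 5th, 6th and 7th lowest of the 10780 genes in that library, next to one another, and that of CTGF was the 30th lowest.
LATS2 (chromosome 13, 20973036 to 21061586), the kinase that phosphorylates YAP, had 5.04 and 5.20 FPKM in the controls, 3.54 FPKM in shELK4_1, 5.35 FPKM in shELK4_2 and 2.97 FPKM in shELK4_3. It was the only target of the 5 with its lowest value in shELK4_3. ANKRD1 (chromosome 10, 90912096 to 90921087), a nuclear ankyrin-repeat protein, did not exceed 0.0537 FPKM in any library and gives no usable difference.

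Of the 10 members, 3 had all knockdown libraries below both controls (YAP1, TEAD4 and VGLL3), 1 had all above (WWTR1) and 6 overlapped. Among the 8 tested members this leaves 2 below and 1 above, beside 21.0% and 19.1% of all tested genes. At a difference of 1.5-fold or more on the log2(FPKM + 1) scale, 4 of the 8 were lower in shELK4_1 (YAP1, CYR61, CTGF and AMOTL2), beside 1.97% of all tested genes, and 1 was higher (WWTR1), beside 3.0%. In shELK4_2, 0 of the 8 were lower and 0 higher, beside 3.89% and 2.01% of all genes. In shELK4_3, 2 were lower (CYR61 and LATS2), beside 2.47%, and 0 were higher, beside 2.34%. As this comparison chose the members, nothing is read from these shares.

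**Figure D2:**
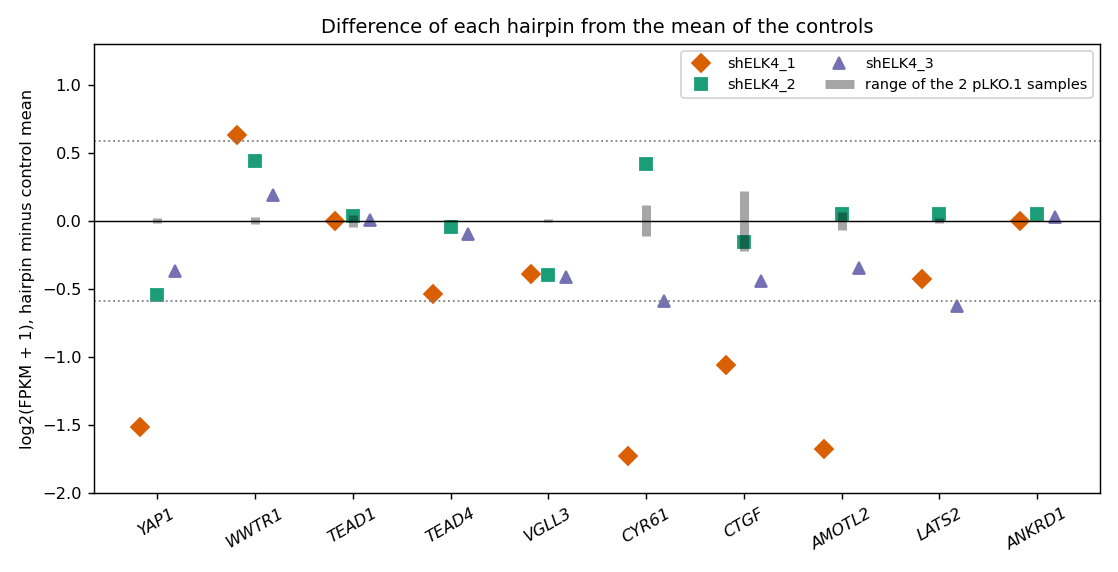
Difference of each hairpin from the mean of the 2 controls on the log2(FPKM + 1) scale for the 10 members; gray bars span the 2 pLKO.1 libraries and dotted lines mark 1.5-fold. CYR61 and AMOTL2 reached −1.73 and −1.67 in shELK4_1, VGLL3 was −0.39 to −0.41 in all 3 hairpins, and TEAD1 stayed near 0.

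To compare the targets with YAP1 hairpin by hairpin, the log2(FPKM + 1) values of the 5 targets were averaged in each library. The mean differed from that of the controls by −0.98 in shELK4_1, 0.08 in shELK4_2 and −0.39 in shELK4_3, while each control lay 0.08 from their mean. The mean includes ANKRD1, whose difference is held near 0 by its low level, and without it the differences were −1.22, 0.09 and −0.50. Thus the library with the least YAP1 also had the lowest target mean. The order did not carry further. YAP1 was lower in shELK4_2 (23.2 FPKM) than in shELK4_3 (26.3 FPKM), whereas all of CYR61, CTGF, AMOTL2 and LATS2 were higher in shELK4_2 than in shELK4_3. Compared with the controls, shELK4_2 had 67.8% of YAP1, 82.6% of CTGF, 104% of AMOTL2, 104% of LATS2 and 135% of CYR61. CYR61, CTGF and AMOTL2 did not have the order of ELK4 either, which was highest among the hairpins in shELK4_1, where these 3 targets were lowest. LATS2 was lowest in shELK4_3, the library with the least ELK4, but highest in shELK4_2, so its order was not that of ELK4. In VGLL4 the order differed again, with shELK4_2 the low library. With 1 library per hairpin these orders have no replicate check, and with 5 libraries no correlation was computed.

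**Figure D3:**
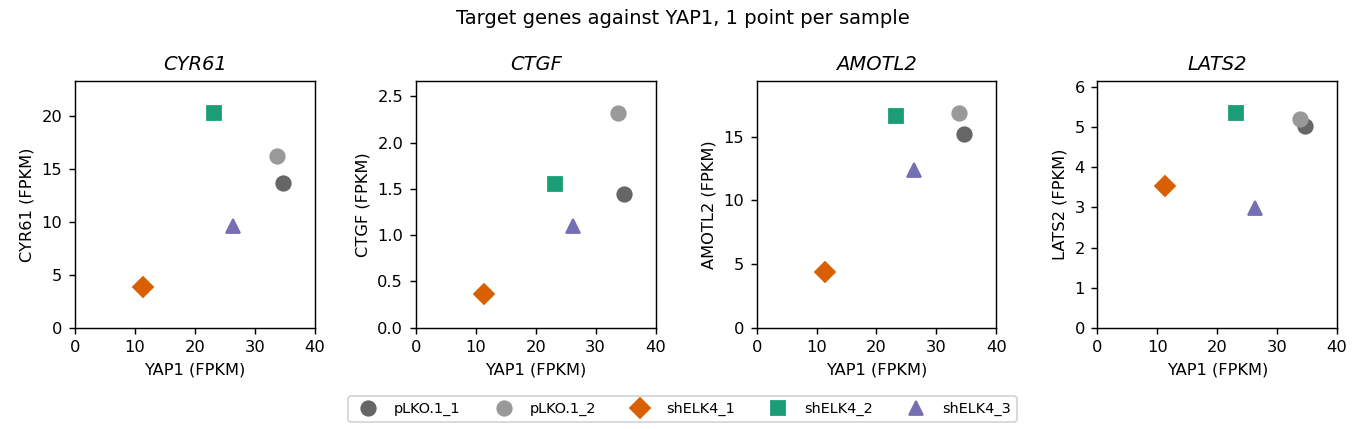
FPKM of 4 targets (vertical axes) against YAP1 FPKM (horizontal axis), 1 point per library. shELK4_1 lies at the lower left for CYR61, CTGF and AMOTL2, while shELK4_2 has less YAP1 than shELK4_3 (23.2 and 26.3 FPKM) but more of each target.

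A wider set of YAP and TAZ targets was then examined, with 27 genes besides the members, of which 21 were tested. It joined 17 genes of a widely used list of 22 with 10 other genes often named as targets. These genes were picked with earlier results of these data known, so their shares are a description and nothing is read from them. In shELK4_1, 6 of the 21 (28.6%) were lower by 1.5-fold or more, beside 1.97% of all tested genes. They were AJUBA, THBS1, CCND1, CRIM1, AXL and DOCK5, and 3 (14.3%) were higher (BMP4, NT5E and F3), beside 3.0% of all tested genes. In shELK4_2, 1 of the 21 (4.76%) was lower (CCND1) and 1 higher (FJX1), beside 3.89% and 2.01% of all tested genes. In shELK4_3, 4 (19%) were lower (CCND1, THBS1, CRIM1 and AJUBA) and 1 (4.76%) higher (BMP4), beside 2.47% and 2.34%. With shELK4_1 the median difference of the 21 genes was −0.20, with shELK4_2 0.04 and with shELK4_3 −0.11, and that of all tested genes was −0.01, −0.02 and 0.01. The 12 tested genes of the published list had the order of the target members, with medians of −0.20, −0.03 and −0.11. The 9 tested genes often named as targets did not, with medians of 0.03, 0.04 and −0.21, the lowest in shELK4_3. AJUBA, AXL, NT5E, F3 and FJX1 are named because their values passed this limit.
AJUBA, a LIM protein that binds LATS kinases, followed CYR61 and AMOTL2 most plainly, with 15.4 and 17.2 FPKM in the controls, 5.27 FPKM in shELK4_1, 16.8 FPKM in shELK4_2 and 10.2 FPKM in shELK4_3. AXL, a receptor tyrosine kinase, had 14.5 and 14.4 FPKM in the controls, 8.42 FPKM in shELK4_1, 15.0 FPKM in shELK4_2 and 11.2 FPKM in shELK4_3. In both genes shELK4_2 lay within or just above the controls. NT5E, which encodes the surface nucleotidase CD73, went the other way, with 13.7 and 14.1 FPKM in the controls, against 23.5, 11.5 and 14.7 FPKM for shELK4_1 to shELK4_3.

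In the test of all 3 hairpins against the controls, 0 of the 21 targets had an adjusted p under 0.05 from limma, beside 0.167% of the 10780 genes. At an unadjusted p under 0.05, 3 were lower (CCND1, THBS1 and CRIM1), beside 8.14% of all genes, and 2 were higher (BMP4 and GADD45A), beside 8.08%, while 16 passed in neither direction. The median difference was −0.01 in the 21 genes and in all genes alike. CCND1, the gene for cyclin D1, had 370 and 376 FPKM in the controls, against 196, 149.7 and 217 FPKM for shELK4_1 to shELK4_3. All 3 hairpins lay far below the controls, with the lowest value in shELK4_2, where CYR61 was highest. Its log2 difference was −1.01 (standard error 0.16, adjusted p = 0.0743 from limma). THBS1, the secreted glycoprotein thrombospondin 1, had 3.53 and 3.56 FPKM in the controls, against 0.893, 2.32 and 1.66 FPKM for shELK4_1 to shELK4_3, with a log2 difference of −0.83 (standard error 0.22, adjusted p = 0.165 from limma). CRIM1, a transmembrane protein that binds BMPs, had a difference of −0.55 (standard error 0.20, adjusted p = 0.255 from limma).
BMP4, a secreted ligand of the TGF-beta family, had 44.2 and 43.3 FPKM in the controls, against 82.3, 63.3 and 72.0 FPKM for shELK4_1 to shELK4_3. It was above the controls in all 3, with a log2 difference of 0.71 (standard error 0.12, adjusted p = 0.0893 from limma). GADD45A, a stress-response gene, was 0.30 higher (standard error 0.09, adjusted p = 0.207 from limma). The other targets named by rule were DOCK5, ASAP1, MYOF, JAG1 and AREG, with log2 differences of −0.34, −0.29, −0.08, 0.30 and 0.15 and adjusted p from 0.344 to 0.87 from limma. Of the targets below the FPKM limit, CCDC80, a secreted matrix protein, had 0.483 and 0.478 FPKM in the controls, against 0.0805, 0.0789 and 0.297 FPKM for shELK4_1 to shELK4_3, and FOXF2 was listed at 0 in every library. The authors' own list for this knockdown has CCND1, THBS1, CCDC80 and the member VGLL3 as lower at an adjusted p under 0.05. No test is named for that list, so its calls cannot be set directly beside those from limma.

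**Figure D4:**
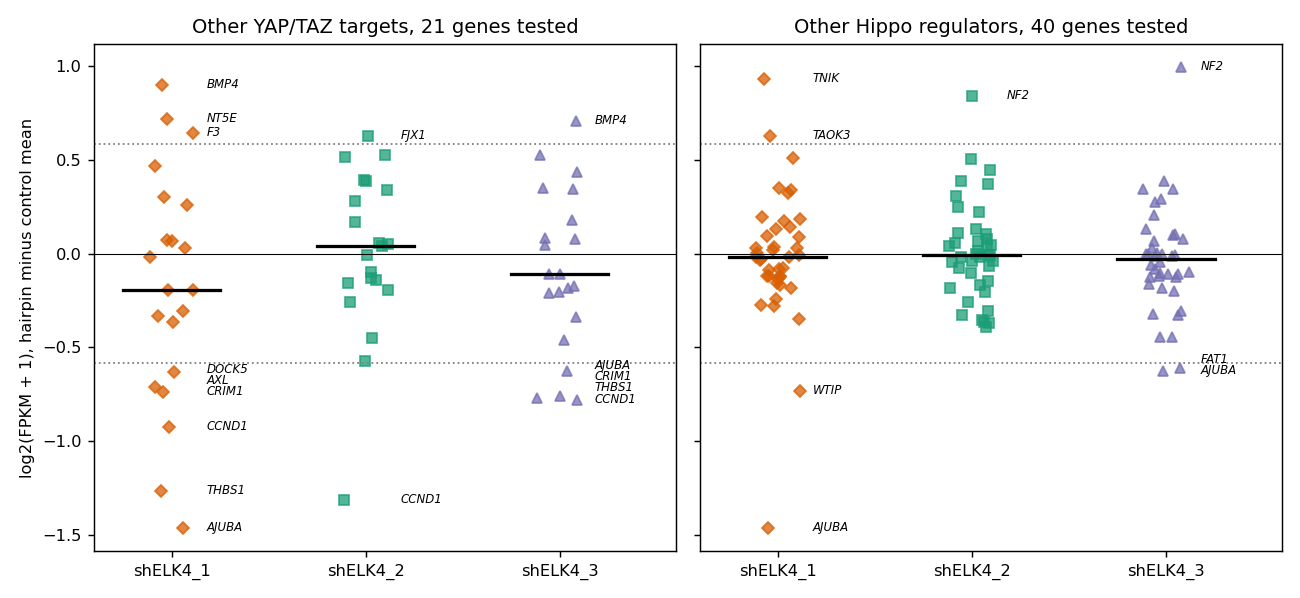
Difference of each hairpin from the control mean on the log2(FPKM + 1) scale for the 21 other targets (left) and the 40 other Hippo regulators (right) tested; 1 point per gene, black lines are medians, dotted lines mark 1.5-fold and genes beyond it are named. The median of the targets was −0.20 in shELK4_1, and that of the regulators was near 0 in all 3 hairpins.

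Of 44 other genes that regulate the pathway, picked with earlier results of these data known, 40 were tested, and their shares are a description. 0 of the 40 had an adjusted p under 0.05 from limma. At an unadjusted p under 0.05, 4 were lower and 3 higher, which is 10% and 7.5% beside 8.14% and 8.08% of all genes, and the median difference was −0.02. NF2, the gene for the tumor suppressor merlin that activates the kinase cascade, had 6.80 and 7.13 FPKM in the controls, against 10.3, 13.2 and 14.9 FPKM for shELK4_1 to shELK4_3. Every hairpin lay above both controls, with a log2 difference of 0.78 (standard error 0.15, adjusted p = 0.102 from limma). TAOK3, a kinase upstream of MST, was 0.39 higher (standard error 0.14, adjusted p = 0.249 from limma), and WWC1, the scaffold KIBRA, differed by −0.26 (adjusted p = 0.296 from limma).
Among the junction and polarity proteins, WTIP, a LIM protein related to AJUBA, had 3.05 and 2.84 FPKM in the controls, against 1.38, 2.08 and 1.90 FPKM for shELK4_1 to shELK4_3, a log2 difference of −0.51 (standard error 0.13, adjusted p = 0.157 from limma). FAT1, a giant cadherin, had 101 and 89.0 FPKM in the controls, against 74.2, 76.6 and 61.7 FPKM for shELK4_1 to shELK4_3 (log2 difference −0.42, adjusted p = 0.186 from limma). LLGL1, a polarity protein, was 0.31 higher (adjusted p = 0.167 from limma), and STRN3, a subunit of a phosphatase complex that acts on MST kinases, had a log2 difference of −0.26 (adjusted p = 0.248 from limma). The kinases LATS1, STK3 and STK4 had log2 differences of 0.04, 0.01 and 0.10 (adjusted p = 0.858, 0.975 and 0.673 from limma), and the adaptors MOB1A and SAV1 of −0.12 and −0.08. MAP4K2 and CSNK1E, kinases of the wider pathway, had differences of 0.26 and 0.28 (adjusted p = 0.326 and 0.394 from limma).
Beyond 1.5-fold in shELK4_1, 2 of the 40 regulators (5%) were lower (AJUBA and WTIP) and 2 (5%) higher (TNIK and TAOK3), beside 1.97% and 3.0% of all tested genes. In shELK4_2, 0 were lower and 1 (2.5%) was higher (NF2), beside 3.89% and 2.01%. In shELK4_3, 2 (5%) were lower (AJUBA and FAT1) and 1 (2.5%) higher (NF2), beside 2.47% and 2.34%. AJUBA is counted among the targets too. TNIK, a MAP4K family kinase named for this value, had 2.63 and 2.03 FPKM in the controls, 5.32 FPKM in shELK4_1, 1.57 FPKM in shELK4_2 and 1.44 FPKM in shELK4_3.

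Finally, the tested genes most like YAP1 and VGLL3 were sought by the root mean square difference of their 3 hairpin values on the log2(FPKM + 1) scale. Closest to YAP1 was ATF3, a stress-induced transcription factor, at 0.171, with 16.1 and 16.1 FPKM in the controls, 5.56 FPKM in shELK4_1, 12.4 FPKM in shELK4_2 and 10.7 FPKM in shELK4_3. THBS1 came next at 0.279, and then CA2, a carbonic anhydrase, at 0.293. Closest to VGLL3 were SLC38A7, PHF23 and SH3BGRL3, at 0.0171, 0.0172 and 0.0218. SLC38A7 had 5.22 and 5.46 FPKM in the controls, against 3.81, 3.88 and 3.70 FPKM for shELK4_1 to shELK4_3, a smaller difference in proportion than that of VGLL3, whose difference on this scale is held down by its low level. The likeness rests on 3 values per gene and is a description.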

How the data were processed

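RNA-seq was carried out on 5 libraries of HCT116 cells, 2 with the pLKO.1 vector and 3 with different ELK4 hairpins. Groups and replicate numbers were taken from the labels. The authors sequenced poly(A) RNA and deposited FPKM values per gene, calculated with Cufflinks and scaled to the mapped reads of each sample. The submitters' processing notes also name Trimmomatic 0.36, HISAT2 2.0.5, Cufflinks 2.2.1 and HTSeq 0.9.1. The genome build and annotation are not given in the sources used here. Between 38 and 49 values per sample lay above 0 but below 1e-06, so FPKM could not be turned into whole reads, and depth, counting error and detection floors are unknown. Precision rests on the spread between libraries.

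After 4 entries with 2 repeated names had been left out, 20026 genes remained. The 10780 genes with FPKM ≥ 1 in 2 or more libraries were fitted with limma 3.58.1 in R 4.3.3 on log2(FPKM + 1), modelling condition alone, with a trend in the empirical Bayes variance and Benjamini-Hochberg adjustment over all of them. Fold changes on this scale understate those of low genes. The fit was run on simulated data with an equal spread in both groups. The spreads of the groups here were unlike, so that run does not show its accuracy here. The members and gene lists were chosen with earlier results of these data known, and the lists were written from general knowledge. PTPN14 and AJUBA stand in both lists. Genes were named by rule: the members, their TEAD and VGLL paralogs, for each list (signature targets, other targets, kinases and adaptors, junction and polarity proteins) every gene with an adjusted p under 0.05, the 4 with the lowest p and the 2 with the highest mean FPKM, and the 3 genes most like YAP1 and VGLL3. Others were named after their values were seen. Gene positions are from GENCODE release 44 on GRCh38 and promoter sequences from RefSeq on GRCh38.p14. CYR61 and CTGF were matched there as CCN1 and CCN2. Alternatives were a pseudocount of 0.1, no FPKM limit, the replicate number as a block, each library left out and median-of-ratios scaling. Counts of targets beyond 1.5-fold in single hairpins under these settings, and the target mean without ANKRD1, were added after seeing the data. Figures were made with matplotlib 3.10.9.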

Additional observations from a re-analysis of the deposited data

How the results depend on the processing

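The number of tested genes with an adjusted p under 0.05 from limma was 18, 13 with a pseudocount of 0.1, 15 with median-of-ratios scaling and 0 with no FPKM limit, where 2270 had an unadjusted p under 0.05, against 1749. With each library left out in turn it ran from 0 to 95, the latter without shELK4 replicate 2, and it was 0 without either control and without shELK4 replicate 1. The number with an unadjusted p under 0.05 ran from 571 to 2441, lowest without a control. The number of other targets with an unadjusted p under 0.05 ran from 3 without pLKO.1 replicate 1 to 10 without shELK4 replicate 2, where CCND1, BMP4 and CRIM1 had adjusted p of 0.0295, 0.0403 and 0.0403 from limma. That of regulators ran from 1 without pLKO.1 replicate 1 and 3 without pLKO.1 replicate 2 to 9. The number of genes whose groups do not overlap was 4322, and 5526 to 6068 with a library left out, since fewer samples overlap less often. Where a library was left out of the controls, the lone control was assumed to vary like the other group.

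With a pseudocount of 0.1, the mean difference of the 5 target members in shELK4_1 was −1.27 in place of −0.98. With the pseudocount of 1 but without ANKRD1, a choice made after seeing the data, it was −1.22. With the pseudocount of 0.1, 3 in place of 1 of the other targets were beyond 1.5-fold lower in shELK4_2. The order of the hairpins by the target mean held with that pseudocount and with median-of-ratios scaling. CTGF differed by −0.99 with that pseudocount, against −0.55. Without shELK4 replicate 1, the mean differences of CYR61, AMOTL2, CTGF and TEAD4 were −0.08, −0.15, −0.30 and −0.07, against −0.63, −0.65, −0.55 and −0.23, and without shELK4 replicate 2 those of CYR61 and AMOTL2 were −1.16 and −1.01. TEAD1 changed sign between the left-out controls, at 0.06 and −0.03. With the replicate number as a block, 22 genes had an adjusted p under 0.05 from limma, and 7 targets and 6 regulators had an unadjusted p under 0.05. Replicate number 3 occurs only in shELK4_3, so that library added nothing to the difference in this fit. YAP1 differed by −1.03 there, the same as without shELK4 replicate 3. The replicate numbers do not pair the libraries by any label, and the deviations of same-numbered libraries correlated by 0.08 and 0.02. The cause of these shifts was not tested. Depth is unknown, so VGLL3 and ANKRD1, both under 0.5 FPKM, have no stated counting error.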
